A study of Mus musculus with 9 samples.

Results

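The imprinted Dlk1-Dio3 region of mouse chromosome 12 carries one of the largest miRNA clusters of the genome. Its mature miRNAs were taken from the deposited table by position, as every miRNA on chromosome 12 whose start lay between 109.5 and 109.8 Mb, with no use of its level. This gave 115 of the 1978 mature miRNAs listed, from chr12:109544588-109747949, a span of 203.4 kb. The genome build was not given in the sources used here. The 111 members found by name in the RefSeq table for GRCm38.p6 all had the same start and end there as in the deposited table.

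Imprinted genes are transcribed from only one parental chromosome. In this region the maternal chromosome gives rise to long noncoding RNAs, among them Meg3 (also called Gtl2), a transcript antisense to Rtl1, Rian and Mirg, and miRNAs are cut from these RNAs and from the transcription between them. The paternal chromosome expresses the protein genes Dlk1, Rtl1 and Dio3. The miRNAs are known above all from the embryo, the placenta and the brain, and the miR-379 group has been studied in mouse models of diabetic kidney disease.

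The libraries hold exosomal small RNA from TCMK-1 cells, an established mouse renal tubular epithelial line, in 3 groups of 3 libraries. LV-NC cells, here the normoxic group, carried an empty control lentivirus and had normal oxygen. H/R-LV-NC cells, the H/R group, carried the same control virus and went through hypoxia and reoxygenation (H/R), with 24 h at 1% O2 followed by 12 h at 21% O2. H/R-LV-BMAL1 cells, the BMAL1 group, had the same H/R and a lentivirus for stable overexpression of BMAL1, a transcription factor of the circadian clock. All 3 groups were therefore infected (multiplicity 100 in the labels), exosome-free medium was used for H/R, and there was no LV-BMAL1 group without H/R. Whether libraries within 1 group stand for different cultures is not stated, and p-values therefore measure only the spread between libraries, which may be technical. BMAL1 mRNA was not measured in these libraries and its overexpression could not be checked in them.

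Each cDNA molecule carries a unique molecular identifier (UMI), and libraries held 807158 to 1447040 UMIs in the control-virus groups and 3357851 to 4057046 in the BMAL1 group. Levels are given as CPM, the UMI counts scaled to a common library total, after TMM scaling, which corrects for the make-up of each library. The TMM factors were 1.03 to 1.72 in the control-virus groups and 0.558 to 0.940 in the BMAL1 group, so counts of members are also given with scaling by total UMIs. BMAL1 library 1 stood apart on the TMM scale. There 88 of the 1978 miRNAs had at least 20 UMIs and were at least 4-fold above both other libraries of its group. Among 9 markers of epithelium and kidney tubule, miR-30a-5p was abundant, with 5224 to 40753 UMIs per library. The tubule markers miR-192-5p (114 to 854 UMIs) and miR-194-5p (55 to 380) were present at lower levels, and miR-204-5p was low (7 to 44). The epithelial miRNAs miR-200a-3p, miR-200b-3p, miR-200c-3p, miR-141-3p and miR-429-3p had only 2 to 46 UMIs per library.

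The members came from 60 annotated hairpins, with 55 products of the 5p arm, 56 of the 3p arm and 4 with no arm in the name. Of these, 109 lay on the plus strand, the strand of Meg3, Rian and Mirg. The other 6 lay on the minus strand, and were both arms of miR-3071, miR-3544 and miR-299b, each opposite a plus-strand hairpin. By the GENCODE M21 gene models 27 members lay within Mirg, 11 antisense to Rtl1, 6 within Rian and 3 within Meg3, all on the same strand as the noncoding RNA, and 68 lay outside these genes on their own strand.

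The sequences that the results turn on are printed 5′ to 3′ from the RefSeq table for GRCm38.p6, with the seed (bases 2 to 8, the stretch that pairs with targets) in capitals. Of the most abundant members and those with the smallest p, the following are shown because their levels are described in full.
miR-379-5p: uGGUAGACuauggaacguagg
miR-127-3p: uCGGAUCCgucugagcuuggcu
miR-3072-5p: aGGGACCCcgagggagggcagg
miR-341-3p: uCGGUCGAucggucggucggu
miR-453: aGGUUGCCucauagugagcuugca
miR-329-3p: aACACACCcagcuaaccuuuuu
miR-541-5p: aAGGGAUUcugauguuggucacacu
miR-541-3p: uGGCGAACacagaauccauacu
miR-433-5p: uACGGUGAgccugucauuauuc

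Members that share a seed, that are nested in sequence (miR-299a-5p and miR-299b-5p) or that lie opposite one another (miR-3071-5p and miR-136-3p) are shown next because their reads or their targets may be shared.
miR-1193-5p: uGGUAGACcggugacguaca
miR-496a-5p: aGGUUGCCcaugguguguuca
miR-376b-5p: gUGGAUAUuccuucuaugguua
miR-376c-5p: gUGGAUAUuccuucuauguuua
miR-299a-5p: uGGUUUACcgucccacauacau
miR-299b-5p: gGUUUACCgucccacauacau
miR-3071-5p: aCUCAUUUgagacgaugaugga
miR-136-3p: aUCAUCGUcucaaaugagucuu

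The last set belongs to hairpins with an arm that stood apart in a single library, as described further on, and miR-411-3p is shown as the opposite arm of miR-411-5p.
miR-434-3p: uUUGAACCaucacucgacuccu
miR-411-5p: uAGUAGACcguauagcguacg
miR-411-3p: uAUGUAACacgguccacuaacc
miR-323-3p: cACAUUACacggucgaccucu

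The 111 sequences matched were 18 to 26 bases long and held 102 different seeds. Only 9 seeds were shared, each by 2 members, so the cluster is a set of mostly unlike miRNAs rather than a family. miR-379-5p shares its seed with miR-1193-5p, but the levels were far apart, at a mean of 718 TMM-scaled CPM for miR-379-5p and 5.04 for miR-1193-5p. miR-453 shares its seed with miR-496a-5p, with means of 11.8 and 8.76 TMM-scaled CPM. The sequence of miR-299b-5p (21 bases) is contained in that of miR-299a-5p (22 bases), and that of miR-299b-3p (18 bases) in miR-299a-3p, so reads of these pairs cannot be told apart in full. miR-376b-5p and miR-376c-5p differ by 1 base. Values of these 6 members are uncertain for that reason. miR-1906 and miR-3070-5p each had more than 1 locus in the RefSeq table, so their counts cannot be placed at a single site. miR-376c-3p, miR-487b-3p, miR-539-3p and miR-485-5p were not matched.

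The cluster as a whole was a minor part of the exosomal miRNA. It took 0.473% ± 0.159 (SD, n = 3) of the UMIs in the normoxic group, 0.506% ± 0.154 in the H/R group and 0.232% ± 0.0738 in the BMAL1 group. The lowest library was BMAL1 library 3, at 0.181% (95% Wilson interval 0.177% to 0.185%, counting error only), and the highest H/R library 2, at 0.678% (0.661% to 0.696%). On this scale each BMAL1 library lay below all 6 libraries with the control virus. This separation rested on miR-379-5p, the most abundant member. Without it BMAL1 library 1 (0.2963%) was no longer below normoxic library 2 (0.2959%). After TMM scaling the members summed to 6353, 3459 and 3794 CPM in the normoxic group, to 3645, 3955 and 3629 in the H/R group, and to 3365, 2687 and 3236 in the BMAL1 group, and the last group was still the lowest, but by a narrow margin over normoxic library 2. Without miR-379-5p the TMM-scaled sums overlapped, with 3154 in BMAL1 library 1 against 2853 in normoxic library 2 and 2929 in H/R library 1. Exosomal RNA is a bulk sample, so fewer vesicles of a kind and less miRNA per vesicle cannot be told apart.

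Most members were present at low levels. A UMI was found in all 9 libraries for 111 members, and the 4 with a 0 in at least 1 library were miR-1906, miR-493-5p, miR-299b-3p and miR-495-5p. The median member had a mean of 14.7 TMM-scaled CPM, against 17.8 over all 1978 miRNAs. A mean of at least 100 TMM-scaled CPM was reached by 7 members (6.09%) against 14.3% of all miRNAs, and no member reached 1000, a level that 4.20% of all miRNAs passed. The lowest member was miR-299b-3p, at 0.766. The filter on low counts kept 92 of the 115 members for testing, and 23 were not tested.

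Along the locus the members fell into 3 stretches. The stretch of Meg3 and anti-Rtl1 held 31 members, with a median of 18.0 TMM-scaled CPM and miR-127-3p at the top (245). The Rian stretch held 7, with a median of 24.9 and miR-370-3p (118) at the top, and includes miR-882, which lies beyond the annotated end of Rian. The Mirg stretch held 77, with a median of 12.3 and miR-379-5p (718) at the top. The Mirg stretch took 72.2%, 65.8% and 65.9% of the cluster's UMIs in the normoxic group and 63.3%, 59.2% and 60.2% in the H/R group. In the BMAL1 group it took 46.1%, 58.3% and 58.0%. The 3 groups were separate in this share, so the H/R group too lay below the normoxic group. miR-379-5p alone took 11.3% to 39.9% of the cluster's UMIs with the control virus and 6.28% to 13.6% in the BMAL1 group. Normoxic library 1 had both the highest share of miR-379-5p, 39.9%, and the highest share of the Mirg stretch, 72.2%. The share of the stretch without miR-379-5p was not computed. The separation of the 3 groups therefore cannot be read as a shift of the whole stretch. BMAL1 library 1, which stood apart above, had the lowest share of the stretch, 46.1%.

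**Figure D1:**
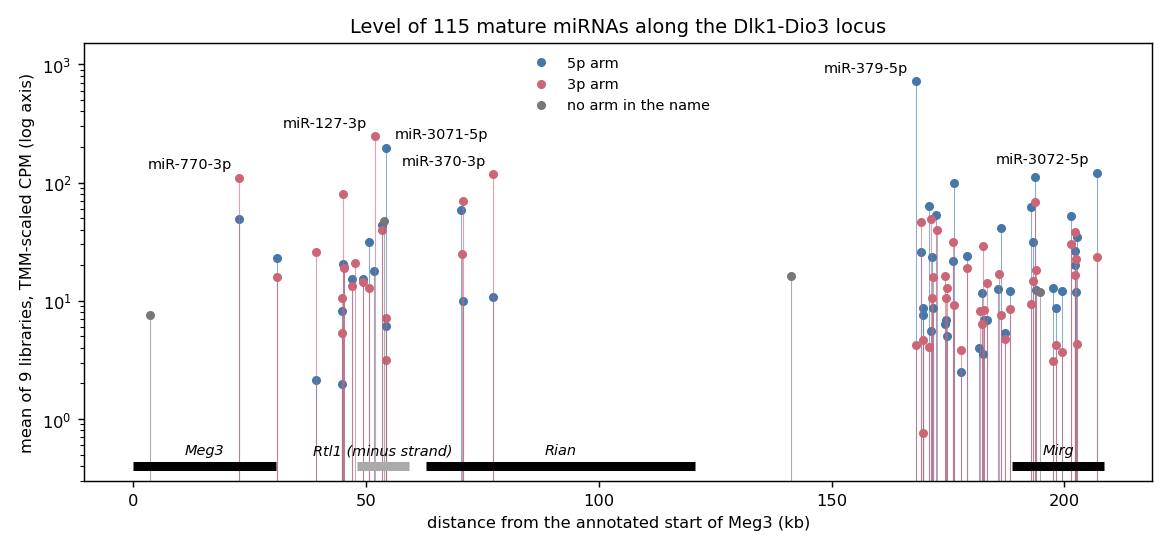
Mean level over 9 libraries (TMM-scaled CPM, log axis) of the 115 mature miRNAs against the distance from the annotated start of Meg3 in kb, coloured by hairpin arm, with the GENCODE M21 spans of Meg3, Rtl1, Rian and Mirg as bars. miR-379-5p, at 718, is the highest point, and most members lie under 100.

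miR-379-5p was the most abundant member and the first miRNA of the Mirg stretch, and it gave its name to the miR-379/miR-410 group. It measured 2532, 607 and 569 TMM-scaled CPM in the normoxic group, 716, 695 and 410 in the H/R group, and 211, 283 and 439 in the BMAL1 group. A single library, normoxic library 1, was 3.53-fold above the next and held 2556 UMIs of this miRNA. The other normoxic libraries lay within the range of the H/R group, and the BMAL1 group overlapped the H/R group but not the normoxic group. miR-379-5p was the top member in every library other than BMAL1 library 1, where miR-540-3p was.

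miR-127-3p, which lies antisense to Rtl1 and is complementary to its mRNA, was the next most abundant. Its level was 301, 261 and 226 TMM-scaled CPM in the normoxic group, 287, 220 and 215 in the H/R group, and 149, 214 and 334 in the BMAL1 group. The groups overlapped throughout, with means of 263 ± 37.4, 241 ± 40.5 and 232 ± 93.9 (SD, n = 3).

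miR-3071-5p followed, at a mean of 196 TMM-scaled CPM, and is the only minus-strand member at a high level. It lies on the strand of Rtl1, opposite miR-136-3p, with which it shares 19 positions and which had a mean of 7.19. The libraries read 530, 151 and 172 in the normoxic group, 173, 225 and 143 in the H/R group and 76.1, 110 and 183 in the BMAL1 group. As with miR-379-5p, normoxic library 1 was far above the rest. The groups overlapped in each comparison. miR-668-5p, in the Mirg stretch, had the same high library, at 353 against 96.7 and 89.6 in the other normoxic libraries.

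miR-370-3p, within Rian, showed no separation of the groups, at 83.1 to 149 TMM-scaled CPM in the normoxic group, 92.5 to 120 in the H/R group and 69.8 to 240 in the BMAL1 group. miR-770-3p, within Meg3, varied widely between libraries of a group, with 35.8 to 88.2 in the normoxic group, 47.4 to 235 in the H/R group and 36.1 to 294 in the BMAL1 group. For both, and for miR-540-3p (306 in BMAL1 library 1 and 38.4 to 87.1 elsewhere), the highest value was that of BMAL1 library 1. miR-543-5p ran from 60.2 to 203 in the normoxic group, 78.7 to 118 in the H/R group and 31.8 to 60.5 in the BMAL1 group. miR-1188-3p stayed between 49.9 and 113 in all 9 libraries. Its BMAL1 group lay wholly below the H/R group, with means of 57.5 and 81.5 (log2 fold change -0.50, SE 0.363, edgeR adjusted p = 0.382), and overlapped the normoxic group.

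**Figure D2:**
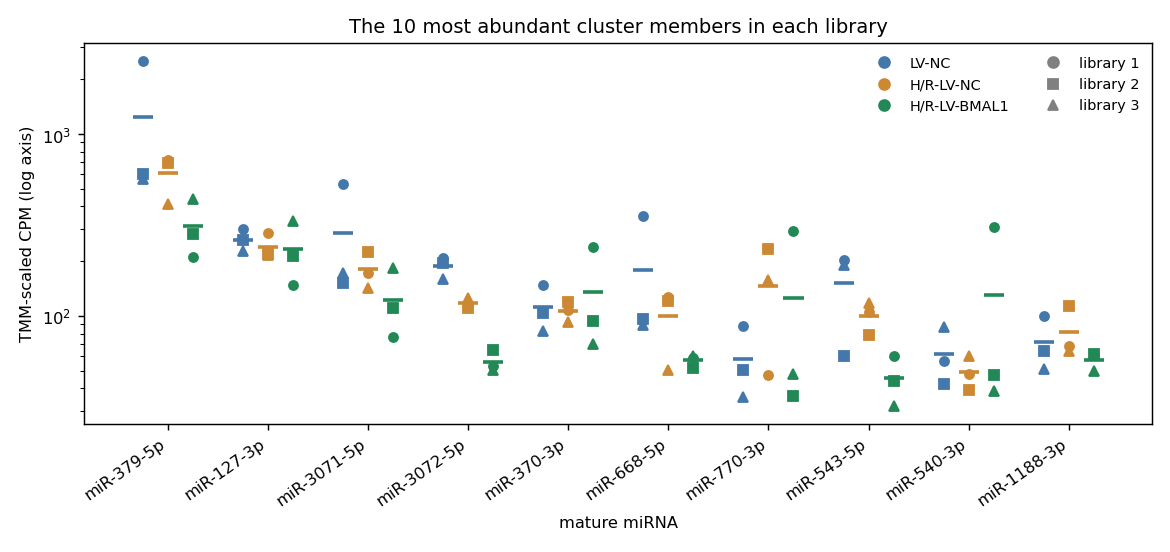
Level (TMM-scaled CPM, log axis) of the 10 most abundant members in each of the 9 libraries, with the group mean as a bar. Normoxic library 1 is far above the rest for miR-379-5p (2532), and the 3 groups of miR-3072-5p are separate from one another.

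The first comparison, the H/R group against the normoxic group, asked what hypoxia and reoxygenation did in cells with the control virus. No member passed the test, and no gene group is described as changed. In edgeR's quasi-likelihood test 0 of 92 members had an adjusted p under 0.05, as did 0% of all 1682 miRNAs tested. At an unadjusted p under 0.05 there were 9 members higher and 3 lower, or 9.78% and 3.26%, against 5.11% and 2.08% of all miRNAs. DESeq2 called 1 member (miR-341-3p), against 0.119% of all miRNAs, and limma-voom 0, as in all miRNAs (0%). The median log2 fold change was 0.03 for the members and 0.01 for all miRNAs.

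miR-341-3p, within Rian, had the smallest p. It measured 8.92, 10.9 and 8.96 TMM-scaled CPM in the normoxic group, 60.2, 14.4 and 61.1 in the H/R group, and 16.5, 21.5 and 22.1 in the BMAL1 group. Each H/R library lay above each normoxic library, but H/R library 2 was close to them, on 20 UMIs. The log2 fold change was 2.24 (SE 0.507, edgeR adjusted p = 0.645). Without that library it was 2.68, with an edgeR adjusted p of 0.0231, and this was the only miRNA then called (0.0588% of 1701). The log2 ratio of 5p to 3p UMIs, which holds the same miR-341-3p counts, was 1.85 to 2.49 in the normoxic group and -0.12 to 1.54 in the H/R group. The other arm, miR-341-5p, had a log2 fold change of only 0.22 (SE 0.411).

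The other members with the smallest p in this comparison were all higher with H/R and all low in count. miR-3070-3p, in the Meg3 and anti-Rtl1 stretch, had 5 to 11 UMIs in the normoxic group and 24 to 43 in the H/R group, with a log2 fold change of 1.53 (SE 0.473). miR-3072-3p had 10 to 21 and 32 to 102 UMIs, with a log2 fold change of 1.60 (SE 0.50). miR-665-5p had 5 to 13 and 18 to 139 UMIs (2.03, SE 0.677), and the 139 UMIs were those of H/R library 3, without which the log2 fold change was 0.72. miR-377-5p had 1 to 9 and 16 to 62 UMIs (1.84, SE 0.635), and without the same library its log2 fold change was 1.21. The edgeR adjusted p was 0.645 for each of these. On the TMM scale 10 members had the H/R group wholly above the normoxic group and 2 wholly below, against 7.31% and 6.36% of all miRNAs. With total UMIs it was 13 above and 0 below, against 14.1% and 1.49% of all, and an unadjusted p under 0.05 was found for 14 members higher and 0 lower, against 10% and 0.595% of all.

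The second comparison, the BMAL1 group against the H/R group, asked what BMAL1 overexpression did under H/R, and it shares the H/R libraries with the first. Here too 0 of 92 members passed, against 2.38% of all miRNAs, and more members were lower than higher. Their median log2 fold change was -0.38, against -0.04 for all miRNAs, and 60 of the 92 (65.2%) were below 0, against 51.7% of all. At an unadjusted p under 0.05 there were 6 members higher and 14 lower (6.52% and 15.2%), against 14.3% and 13.6% of all miRNAs. Among those with a mean under 100 TMM-scaled CPM it was 7.06% and 15.3% of members, near the 7.79% and 15.3% of all. The groups did not overlap, on the TMM scale, for 5 members higher and 20 lower with BMAL1, or 5.43% and 21.7% of those tested, against 14.7% and 14.9% of all. With total UMIs the groups did not overlap for 0 members higher and 41 lower, against 4.76% and 44.2% of all, and an unadjusted p under 0.05 was found for 0 members higher and 49 lower, against 3.63% and 43.5% of all.

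The 7 most abundant members and the abundant miRNAs in general mostly differed in direction, but their levels were unlike. Of the 283 miRNAs with a mean of at least 100 TMM-scaled CPM, 22.3% were below 0 and the median log2 fold change was 0.77. The 7 members at that level had a median of -0.55, with 6 below 0, and only 1 of them had an unadjusted p under 0.05 in edgeR. A mean of 500 was reached by 118 of all miRNAs and 1 member, and 1000 by 83 and 0. Of the 1399 miRNAs under 100, 57.6% were below 0 with a median of -0.15, and of the 85 members under 100 it was 54 (63.5%) with a median of -0.38. Under 50 the shares below 0 were 63.2% of members and 60.4% of all. The Mirg stretch had 42 of 60 tested members below 0, the Meg3 and anti-Rtl1 stretch 14 of 25 and the Rian stretch 4 of 7. No test was made on these counts.

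The number of calls differed between the scalings and between the tools. With scaling by total UMIs edgeR called 29 of the 92 members lower and 0 higher, but it also called 28.6% of all miRNAs lower, and the median log2 fold change was -1.21 for the members and -0.87 for all. The 40 calls over all miRNAs on the TMM scale became 0 with RLE or upper-quartile scaling. DESeq2 called 3 members higher and 9 lower (9.69% and 4.58% of all). limma-voom called 1, miR-3072-5p (3.45% of all miRNAs), and edgeR's robust fit 1, miR-329-3p (3.75% of all), both lower. With a filter of at least 50 UMIs on average, 3 of the 28 members then tested were called lower, against 4.13% of 703 miRNAs.

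**Figure D3:**
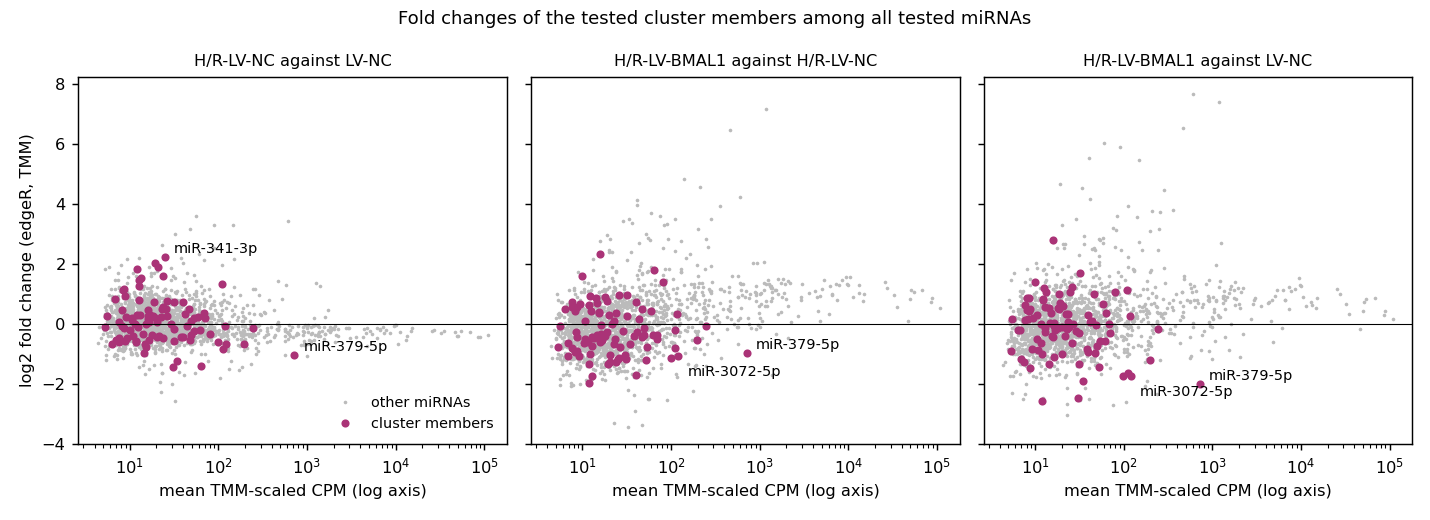
log2 fold change (edgeR with TMM) against mean level (TMM-scaled CPM, log axis) for the 92 tested members and the other tested miRNAs in the 3 comparisons. In the BMAL1 group against the H/R group the miRNAs of at least 100 have a median of 0.77 and the 7 members at that level a median of -0.55. The levels of these sets are unlike, since 83 of all miRNAs and 0 members reach 1000.

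miR-453 had the smallest p of this comparison. Its level was 12.9, 8.88 and 35.8 TMM-scaled CPM in the normoxic group, 14.2, 12.3 and 12.7 in the H/R group, and 3.17, 2.63 and 3.97 in the BMAL1 group. All BMAL1 libraries were below all others, on 7 to 10 UMIs each. The log2 fold change was -1.99 (SE 0.507, edgeR adjusted p = 0.061).

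miR-329-3p, known for its place in activity-dependent dendrite growth in neurons, measured 28.7, 46.4 and 36.6 TMM-scaled CPM in the normoxic group, 41.1, 101 and 45.1 in the H/R group, and 13.0, 19.9 and 25.2 in the BMAL1 group. The last group lay below both others. The log2 fold change was -1.69 (SE 0.432, edgeR adjusted p = 0.061). miR-544-5p had 14.2, 18.8 and 16.0 TMM-scaled CPM in the H/R group and 5.71, 7.90 and 5.74 in the BMAL1 group, a log2 fold change of -1.33 (SE 0.347, edgeR adjusted p = 0.0628).

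miR-541-5p, in Mirg, read 51.5, 81.9 and 79.0 TMM-scaled CPM in the normoxic group, 68.0, 45.5 and 67.7 in the H/R group, and 20.6, 25.6 and 31.8 in the BMAL1 group. The first 2 groups overlapped and the BMAL1 group lay below both. Its log2 fold change with BMAL1 was -1.22 (SE 0.343, edgeR adjusted p = 0.0711). The other arm, miR-541-3p, read 43.6, 20.7 and 112 in the normoxic group, 21.9, 15.9 and 27.5 in the H/R group, and 9.51, 13.5 and 8.83 in the BMAL1 group. Both arms were thus lowest in the BMAL1 libraries.

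The third comparison, the BMAL1 group against the normoxic group, takes H/R and BMAL1 together and shares libraries with both others. It gave the one member that passed, miR-3072-5p, which fell. Called miRNAs made up 0.238% of all in either direction and 0.0595% in the lower direction, so 1 of 92 members (1.09%) rests on a single miRNA. At an unadjusted p under 0.05 there were 5 members higher and 15 lower (5.43% and 16.3%), against 13.3% and 10.1% of all miRNAs. Groups did not overlap on the TMM scale for 8 members higher and 14 lower, against 14.1% and 11.5% of all. With total UMIs it was 1 higher and 29 lower, against 6.18% and 29.8% of all, and an unadjusted p under 0.05 was found for 2 members higher and 26 lower, against 5.71% and 22.9% of all. The median log2 fold change was -0.05 for the members and 0.02 for all.

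miR-3072-5p lies at the far end of the cluster, in Mirg, at chr12:109747893-109747914. It measured 209, 196 and 160 TMM-scaled CPM in the normoxic group, 115, 111 and 126 in the H/R group, and 52.9, 64.7 and 50.3 in the BMAL1 group. The 3 groups were separate, with means of 189 ± 25.2, 117 ± 7.94 and 56.0 ± 7.67 (SD, n = 3). With scaling by total UMIs the normoxic group and the H/R group overlapped, and the BMAL1 group remained below both. The log2 fold change against the normoxic group was -1.75 (SE 0.296, edgeR adjusted p = 0.0386). Against the H/R group it was -1.07 (SE 0.291, edgeR adjusted p = 0.0702), and from the normoxic group to the H/R group it was -0.68 (SE 0.289, edgeR adjusted p = 0.645).

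The call on miR-3072-5p was also made by limma-voom and by edgeR's robust fit, which each called 0.297% of all miRNAs, by DESeq2 (8.62% of all), and with scaling by total UMIs, which called 4.58% of all lower. The filter of at least 50 UMIs on average kept it too, with 2 of 28 members lower against 0.427% of all. It held in 7 of 19 alternative fits, with adjusted p from 1.86e-07 to 0.123 and log2 fold changes from -2.23 to -1.72. The fits that lost it included RLE or upper-quartile scaling, no filter, only the 2 groups in the fit, and leaving out 7 of the 9 libraries in turn. The libraries whose removal kept it were H/R library 2 and BMAL1 library 1.

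The other arm of this hairpin had another order of the groups. miR-3072-3p read 9.91, 20.7 and 9.77 TMM-scaled CPM in the normoxic group, 22.7, 43.3 and 56.1 in the H/R group, and 21.6, 20.3 and 7.95 in the BMAL1 group. The log2 ratio of 5p to 3p UMIs, which no scaling can alter, was 3.21 to 4.33 in the normoxic group, 1.16 to 2.33 in the H/R group and 1.29 to 2.63 in the BMAL1 group. The normoxic group lay above both H/R groups, which overlapped each other.

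Another 4 members had an edgeR adjusted p of 0.0679 against the normoxic group. miR-453 had a log2 fold change of -2.57 (SE 0.506), miR-541-3p of -2.46 (SE 0.546) and miR-541-5p of -1.45 (SE 0.345), on the values given above. Without normoxic library 3, the highest of its group for both, the log2 fold change was -1.73 for miR-453 and -1.59 for miR-541-3p. miR-433-5p, antisense to Rtl1, was the one that was higher, at 23.8, 11.8 and 13.0 TMM-scaled CPM in the normoxic group, 37.5, 18.8 and 24.2 in the H/R group, and 63.4, 53.4 and 39.3 in the BMAL1 group. The last group lay above both others, with a log2 fold change of 1.68 (SE 0.400), but with scaling by total UMIs the groups overlapped. miR-379-5p had a log2 fold change of -1.99 (SE 0.569, edgeR adjusted p = 0.0925), and without normoxic library 1 it was -0.97.

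A hairpin gives 2 mature products, and the balance between them is read within a library. Both arms were listed for 55 hairpins, and 34 of these had at least 20 UMIs, over both arms, in every library. The 5p arm was the higher in all 9 libraries for 7 hairpins and the 3p arm for 9, and 18 were mixed. One arm was thus the higher throughout for 47.1% of the hairpins, against 58.9% of 479 hairpins outside the cluster. The median size of the log2 ratio was 1.33, against 1.49 outside.

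The strongest preference for 5p was in miR-379, with a median log2 ratio of 6.66 (5.91 to 10.0 over the libraries), followed by miR-3071 (5.74) and miR-380 (3.77). The strongest for 3p were miR-376b (-3.85), miR-127 (-3.85) and miR-370 (-3.59). miR-376b-5p is the arm that differs by 1 base from miR-376c-5p, so its ratio is uncertain. It had 1 UMI in each normoxic library, 2 to 4 in the H/R group and 9 to 36 in the BMAL1 group.

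Between groups, most hairpins had arm ratios that overlapped. In the H/R group against the normoxic group the balance lay wholly toward 3p for 5 of 34 hairpins (miR-3072, miR-341, miR-369, miR-667 and miR-668) and toward 5p for 1 (miR-376b), against 5.46% and 5.65% of all 513 hairpins. In the BMAL1 group against the H/R group it was 2 toward 3p (miR-134 and miR-540) and 5 toward 5p (miR-1188, miR-329, miR-376b, miR-433 and miR-494), against 14% and 13.6% of all. In the BMAL1 group against the normoxic group it was 4 each way, against 12.5% and 15% of all. As shares of the 34 hairpins, those toward 3p were 14.7%, 5.88% and 11.8% in the 3 comparisons. Those toward 5p were 2.94%, 14.7% and 11.8%. With 3 libraries against 3 an exact permutation test cannot go below p = 0.1, so no p is given for these ratios.

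**Figure D4:**
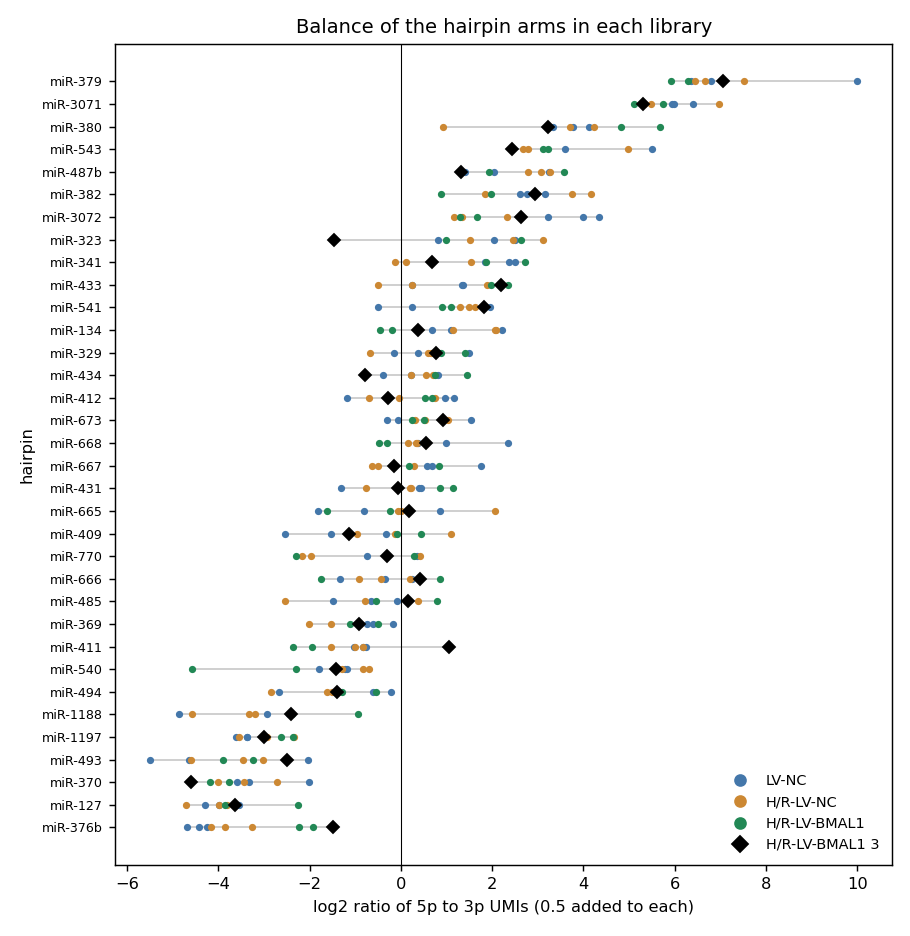
log2 ratio of 5p to 3p UMIs (0.5 added to each) for the 34 hairpins with at least 20 UMIs in every library, 1 point per library, with BMAL1 library 3 as black diamonds. miR-379 (median 6.66) is farthest toward 5p, and BMAL1 library 3 lies across 0 from the other libraries for miR-323 and miR-411.

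Some members stood apart in 1 library and not in 1 group. In BMAL1 library 3, 5 members were at least 4-fold above both other libraries of their group with at least 20 UMIs, miR-434-3p, miR-136-3p, miR-411-5p, miR-323-3p and miR-539-3p, which is 4.35% of members against 0.961% of all miRNAs. This rule was set after the values were seen, and no test was made. It was applied on the TMM scale only, and counts by this rule with total UMIs are not given. BMAL1 library 3 had the lowest TMM factor of its group, 0.558 against 0.940 and 0.737, which raises its scaled levels against the others. Members near the 4-fold limit therefore depend on the scaling.

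miR-323-3p had 4 to 10 UMIs in each library of the control-virus groups, then 13, 25 and 112 in the BMAL1 group. miR-411-5p had 15 to 45 UMIs in the control-virus groups and 51, 43 and 203 in the BMAL1 group. miR-434-3p had 23 to 70 and then 55, 43 and 261. BMAL1 library 3 was the highest of all 9 for each on the TMM scale.

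None of the opposite arms met the same rule. Among the BMAL1 libraries, library 3 had fewer UMIs than the others of miR-323-5p (40 against 83 and 50) and miR-411-3p (98 against 200 and 223), more of miR-434-5p (152 against 92 and 118) and miR-136-5p (27 against 13 and 16), and a value between them of miR-539-5p (7 against 6 and 15). The balance of 2 hairpins was turned over in that library. The log2 ratio of 5p to 3p was -1.47 for miR-323 in BMAL1 library 3 and 0.82 to 3.12 in the other 8 libraries. For miR-411 it was 1.05 there and -2.36 to -0.77 elsewhere.

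Neuron markers from outside the cluster, other than miR-219a-5p, were high in the same library. All 5 markers listed were detected, with a sum of 9314 TMM-scaled CPM in BMAL1 library 3 and 318 to 1679 in the other 8 libraries. miR-9-5p had 10780 UMIs there, 473 and 631 in the other BMAL1 libraries, 457 in H/R library 3 and 7 to 16 in the remaining 5. miR-124-3p, the most neuron-specific of the list, had 255 UMIs there and 4 to 35 elsewhere. miR-219a-5p had 104 UMIs there, 90 and 100 in the other BMAL1 libraries and 13 to 24 in the control-virus groups. Most of the sum in BMAL1 library 3 came from miR-9-5p (4760 TMM-scaled CPM) and miR-128-3p (4241). As a share of all UMIs the sum was 0.52% there and 0.0545% to 0.127% elsewhere. On the TMM scale the sums of 4 other lists were also highest in this library, namely epithelium and kidney tubule (18600 CPM against at most 15280), endothelium and mesenchyme (40813 against at most 30371), liver and muscle (5706 against at most 4155) and imprinted miRNAs outside the cluster (5736 against at most 3704), while blood cells were not (224 against at most 256). As a share of all UMIs only the endothelium and mesenchyme list, at 2.28% against at most 2.24%, was still highest there among these 5. The part of these lists in the levels of the cluster was not tested. Without BMAL1 library 3 the median log2 fold change of the members against the H/R group was -0.42, and 0 members were called.

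In BMAL1 library 1 another 6 members met the same rule, miR-770-3p, miR-540-3p, miR-758-3p, miR-666-3p, miR-381-5p and miR-410-5p, which is 5.22% of members against 4.45% of all miRNAs. miR-540-3p had 967 UMIs there against 126 and 87 in the other BMAL1 libraries, miR-770-3p 928 against 96 and 108, and miR-758-3p 260 against 33 and 26. Without this library the median log2 fold change of the members against the H/R group was -0.38, and 1 member, miR-323-3p, of the 101 then tested was called higher, against 7.31% of 1738 miRNAs. miR-323-3p had not passed the filter of the main fit and was not tested there. Its highest count is that of BMAL1 library 3 described above, so the call is no separate support for a rise. Against the normoxic group, 3 members (miR-3072-5p, miR-453 and miR-543-5p) were then called lower, against 0.345% of all.

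Normoxic library 3 had 5 such members, miR-410-5p (191 UMIs against 18 and 10), miR-299a-5p (35 against 6 and 4), miR-299b-5p (29 against 4 and 4), miR-154-5p (32 against 5 and 5) and miR-758-5p (20 against 3 and 4), which is 4.35% of members against 1.06% of all miRNAs. miR-299a-5p and miR-299b-5p, whose sequences are nested, count as 1 signal here.

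**Figure D5:**
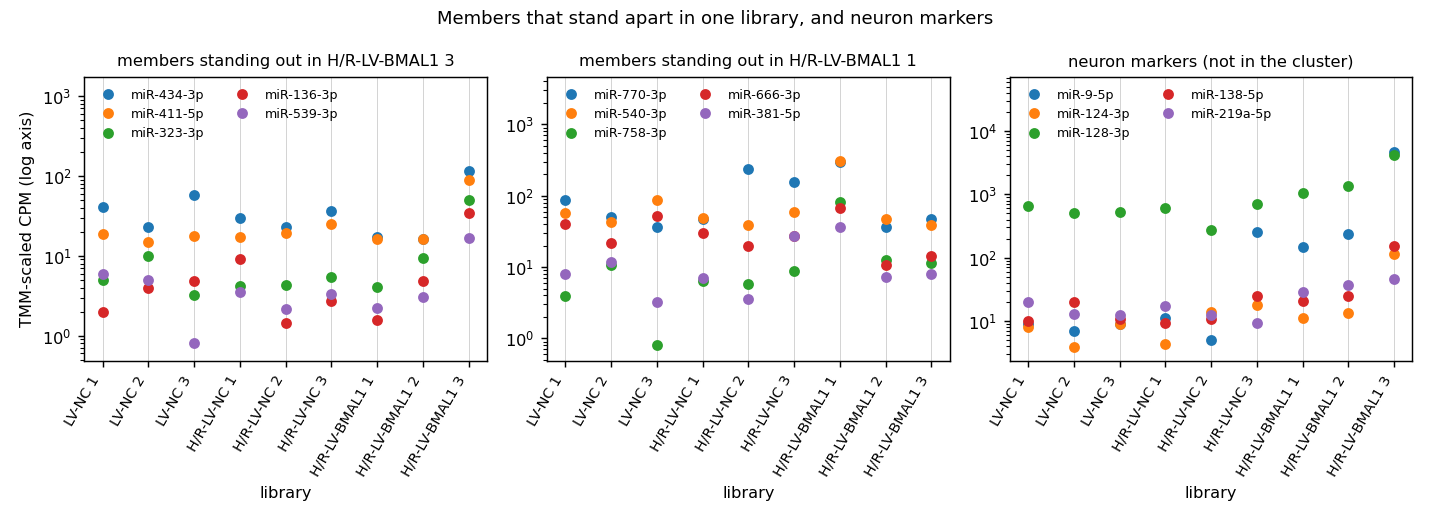
Level (TMM-scaled CPM, log axis) in each of the 9 libraries of 5 members that stand out in BMAL1 library 3, of 5 of the 6 that stand out in BMAL1 library 1, and of 5 neuron markers outside the cluster. The neuron markers miR-9-5p, miR-124-3p, miR-128-3p and miR-138-5p are highest in the same library as miR-323-3p and miR-411-5p. miR-219a-5p is only a little higher there, at 45.9 against 28.5 and 37.6 in the other BMAL1 libraries.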

How the data were processed

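Exosomal small RNA of 9 TCMK-1 libraries was sequenced with a UMI kit. For 1978 mature miRNAs the authors deposited the UMI counts together with CPM. The deposited CPM equal the UMI counts scaled to each library's total. The submitters' notes name cutadapt 2.7, Bowtie 1.3.0 and edgeR. How reads with more than 1 matching miRNA were assigned, and a genome build, were not given in the sources used here.

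The UMI counts were fitted in R 4.3.3 with edgeR 4.0.16 (filterByExpr, which left 1682 miRNAs, TMM, 1 quasi-likelihood fit of all 9 libraries, Benjamini-Hochberg adjustment over all miRNAs tested), and the steps were tested on simulated data. A call is an adjusted p under 0.05. The alternatives were DESeq2 1.42.0, limma-voom (limma 3.58.1), edgeR's robust fit, RLE, total-UMI and upper-quartile scaling, a fit with the replicate block, a fit of the 2 compared groups alone, no filter, a stricter filter (mean UMIs of 50 or more), and leaving out each library in turn. Gene models came from GENCODE M21 (GRCm38) and sequences from RefSeq.

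The members and lists were chosen with earlier results of these data known. The text names the 10 members with the highest mean level, the called ones, the 5 with the smallest p in each comparison, the 3 hairpins with the highest and the 3 with the lowest arm ratio, members that share a seed, and miR-341-3p. Members that stood apart in 1 library were named after their values were seen.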

Additional observations from a re-analysis of the deposited data

How the results depend on the processing

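The count of called members depended on the settings. For the H/R group against the normoxic group it was 0, and 1 with DESeq2 (0.119% of all miRNAs). For the BMAL1 group against the H/R group it was 0, and 29 with total UMIs, all lower, against 28.6% of all miRNAs. DESeq2 called 12, with 3 higher and 9 lower, against 9.69% and 4.58% of all. limma-voom called 1 (3.45% of all) and edgeR's robust fit 1 (3.75% of all). With the stricter filter (mean UMIs of 50 or more) it was 3 of the 28 then tested, all lower, against 4.13% of 703 miRNAs. For the BMAL1 group against the normoxic group it was 1, against 0.238% of all miRNAs. With total UMIs it was 9, all lower, against 4.58% of all, and with DESeq2 9, against 8.62% of all. It was 0 with RLE, with upper-quartile scaling, with no filter and with only the 2 groups compared. With the stricter filter it was 2 of 28, both lower, against 0.427% of 703 miRNAs. Leaving out each library in turn gave 0 to 1, 0 to 1 and 0 to 3 called members in the 3 comparisons. In the fits with the highest counts, 0.0588% of all miRNAs were called higher, 7.31% higher and 0.345% lower. Total-UMI scaling and DESeq2 also raised the share called among all miRNAs, and the cause was not tested.

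With the replicate number as a block the called members were 0, 0 and 0, so the call on miR-3072-5p was lost. Same-numbered libraries did not deviate together (correlations from -0.156 to 0.132), and the libraries share only a number.

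Of the 19 fold changes followed through all alternatives, those of the members with the smallest p, of miR-379-5p and of miR-3072-5p, the only one that turned was that of miR-379-5p in the H/R group against the normoxic group, from -1.02 to 0.023 without normoxic library 1, with a range of -1.38 to 0.023 on leaving out each library. Over all 92 tested members, scaling by total UMIs turned the sign of 16, 24 and 20 fold changes in the 3 comparisons, among them that of miR-370-3p with BMAL1 against H/R (0.33 to -0.39). The median log2 fold change of the members against the H/R group stayed between -0.45 and -0.22 on leaving out each library. Depth was a limit for many members, since only 52 of the 92 tested had at least 10 UMIs in every library.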

Other observations

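Imprinted miRNAs outside the Dlk1-Dio3 region were compared as a list of both arms of miR-675 (from H19), miR-483 (from Igf2), miR-296 and miR-298 (from the Gnas region) and miR-335 (from Mest). All 10 were tested and 0 were called by edgeR in any of the 3 comparisons. At an unadjusted p under 0.05 there was 1, miR-335-3p, with a log2 fold change of 0.86 in the BMAL1 group against the normoxic group. Their median log2 fold changes were 0.21 for the H/R group against the normoxic group, 0.16 for the BMAL1 group against the H/R group and 0.14 for the BMAL1 group against the normoxic group. miR-298-5p, with group means from 1734 to 2645 TMM-scaled CPM, and miR-296-3p, from 965 to 1099, had higher group means than every member of the Dlk1-Dio3 cluster, except that miR-379-5p (1236) lay above miR-296-3p (989) in the normoxic group.

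BMAL1 is known to bind the E-box, searched here as CACGTG, which reads the same on both strands. In the RefSeq promoter windows (GRCm38.p6) it was found in 0 of 2 windows of Meg3, 0 of 1 of Rian, 0 of 1 of Mirg and 0 of 1 of Dlk1, and 7.15% of all 32851 windows held it. This says only that these letters are not in those windows.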
